A study of Mus musculus with 48 samples.

Results

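The effect of the Q140 allele on striatal RNA in mice labelled Msh3-/- was measured by comparing 8 Q140 x Msh3-/- mice with 8 Msh3-/- mice, 4 of each sex in each group. These are 16 of the 48 RNA-seq libraries of a series with 6 genotypes. The groups were chosen by the genotype given in the sample labels. Q140 is a knock-in allele in which mouse Htt carries an expanded CAG repeat, and Q140 mice are labelled heterozygous for it, which leaves 1 Htt allele that is the mouse's own. Both groups carry the Msh3-/- genotype on a C57BL/6 background, and the libraries were made from the striatum of single mice. Age is uncertain: 12 months in the sample labels, but 6 months at dissection in the protocol for extraction. How the Msh3 alleles were made, and in which cells, is not given in the sources used here. Library totals ran from 41.24 M to 51.37 M counts (M, 1e6) in Msh3-/- mice, with a median of 43.64 M, and from 43.18 M to 55.58 M in Q140 x Msh3-/- mice, with a median of 48.16 M. For comparison, the Q140 effect was also taken as Q140 minus wild type (WT) and as Q140 x Msh3+/- minus Msh3+/-, again with 8 mice per group. The 3 comparisons have no library in common, although 1 fit over all 48 libraries gave their shared estimate of the spread.

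Huntington's disease is caused by expansion of a CAG repeat in the first exon of HTT, which lengthens a run of glutamines in the huntingtin protein. The neurons lost first are the spiny projection neurons of the striatum, GABAergic output cells of the indirect pathway (expressing enkephalin, the D2 dopamine receptor and an adenosine receptor) and the direct pathway (expressing the D1 dopamine receptor, substance P and dynorphin). Expanded repeats lengthen further with age in these neurons, and this somatic expansion needs DNA mismatch repair. MSH3 is the part of the mismatch repair machinery that recognises small loops in DNA, such as those formed by slipped repeats. The comparison therefore asks which transcripts still differ between mice with and without the expanded allele when both carry the label Msh3-/-.

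The following sequence is the start of mouse Htt exon 1 from the start codon, in the reference genome GRCm38 at chr5:34761907-34762056 on the plus strand, and the capitals mark its uninterrupted CAG repeat.
Htt exon 1: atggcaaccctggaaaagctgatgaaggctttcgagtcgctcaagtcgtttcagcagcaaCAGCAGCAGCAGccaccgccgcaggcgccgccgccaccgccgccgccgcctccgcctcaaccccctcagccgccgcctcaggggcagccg
The reference mouse sequence has 4 CAG codons in a row and 7 glutamine codons in a row. The knock-in allele differs from it at this place, and its sequence and repeat length in these mice were not analysed here.

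Msh3 RNA (ENSMUSG00000014850, chromosome 13, 92211872 to 92355003) was present in both groups and was higher than in mice with intact alleles. Levels here and below are TMM-scaled counts per 1e6 counts (CPM). Msh3 ranged from 117.5 to 125.7 CPM in Msh3-/- mice (median 122.6) and from 103.2 to 126.4 CPM in Q140 x Msh3-/- mice (median 116). WT mice had 26.4 to 30.92 CPM. Msh3 RNA thus separated the libraries by label, with more RNA where the label names a loss. Whether the RNA encodes a working protein cannot be read from gene-level counts, so genotypes are called by their labels here, and all directions depend on these. The difference in Msh3 between the groups did not pass the threshold (log2 fold change -0.08, SE 0.0332, edgeR quasi-likelihood adjusted p = 0.117). Htt itself (ENSMUSG00000029104) had 213.8 to 237.8 CPM in Msh3-/- mice (median 221.5) and 204.8 to 243.3 CPM in Q140 x Msh3-/- mice (median 226.5). Its ranges overlapped and it did not pass either (0.03, SE 0.034, adjusted p = 0.663). Whole-gene counts do not separate the 2 Htt alleles.

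The dissected tissue carried the striatal neuron genes at high levels in all 16 mice, with Ppp1r1b between 1634 and 2525 CPM and Pde10a between 1658 and 2949 CPM. Of the 16 libraries, 3 stood apart on the first component of the residuals of the fit: Msh3-/- F1 and M1 and Q140 x Msh3-/- M1 (F, female; M, male). A library of the Msh3+/- cross was the fourth. The 3 had 3.65% to 3.82% of their counts in noncoding genes, against 3.05% to 3.58% in the other 13. The mitochondrial share of counts ran from 5.44% to 7.58% in Msh3-/- mice and from 6.36% to 7.86% in Q140 x Msh3-/- mice. Without the 4 libraries the number of genes called was 1304 in place of 1549, and 1116 of the 1304 were called in the same direction in both fits.

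Among mice labelled Msh3-/-, those with and without the Q140 allele still differed in the RNA of 1549 of 19714 genes tested (7.86%; Benjamini-Hochberg adjusted p under 0.05). Of these, 791 were higher (4.01% of genes tested) and 758 were lower (3.84%). Most differences were small: the median size among the called genes was 0.205 on the log2 scale, 145 reached 1.5-fold and 45 reached 2-fold. Protein-coding genes made up 90.6% of the called genes and 77.0% of the genes tested. The 8 mice of one group all lay above the 8 of the other for 215 genes (1.09% of those tested), 116 of them higher and 99 lower in Q140 x Msh3-/- mice, and 208 of the 215 were called. The split into directions depended on the scaling, since 1252 genes were higher and 623 lower with total counts in place of TMM, while limma on log2(FPKM + 0.1) gave 1287 and 612. Leaving out Q140 x Msh3-/- F4 alone gave 1027 calls, and 1018 of these were called in the same direction with that mouse included.

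The genes that define spiny projection neurons were lower in Q140 x Msh3-/- mice. Of 28 identity genes, 20 fell and 0 rose, against 3.84% of all genes tested that fell, and 27 of the 28 had a value below 0. The median of the list was -0.225 on the log2 scale, beside -0.003 over all genes tested. The number that fell was 20 with total counts, 22 without the 4 libraries that stood apart and 20 without Q140 x Msh3-/- F4. In bulk tissue, fewer cells of a type and less RNA per cell cannot be told apart.

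Pde10a, a cyclic nucleotide phosphodiesterase concentrated in these neurons, had 2496 to 2949 CPM in Msh3-/- mice (median 2791) and 1658 to 2269 CPM in Q140 x Msh3-/- mice (median 1990). Every mouse with Q140 was below every mouse without it. The gene fell by 0.48 on the log2 scale (SE 0.0454, adjusted p = 7.78e-11). Ppp1r1b encodes DARPP-32, the phosphatase inhibitor that integrates dopamine signals in these cells. Its levels were 2224 to 2525 CPM (median 2367) and 1634 to 2081 CPM (median 1826), again without overlap, and it fell by 0.37 (SE 0.0403, adjusted p = 5.78e-09). For Adcy5, an adenylyl cyclase abundant in striatum, levels went from 1881 to 2048 CPM down to 1414 to 1847 CPM, a fall of 0.32 (SE 0.039, adjusted p = 6.86e-08). Cnr1, the CB1 cannabinoid receptor, had 371.1 to 581.6 CPM (median 521.1) against 246.6 to 357.7 CPM (median 332), and fell by 0.67 (SE 0.0833, adjusted p = 3.18e-07). Its 2 lowest values were in the males M1 and M2 of the Q140 x Msh3-/- group, at 246.6 and 249.8 CPM.

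Other identity genes that fell were Rgs9 (-0.37), which speeds the shut-off of G protein signals, Pde1b (-0.35), Ryr1 (-0.85), a calcium release channel, and Hpca (-0.26), a neuronal calcium sensor. Scn4b, a sodium channel subunit (-0.55), and Arpp21 (-0.34), a substrate of cAMP-dependent kinase, were among the rest. The 8 identity genes that did not pass were Itpka, Foxp1, Gng7, Bcl11b, Strn4, Rarb, Gnal and Foxp2. These include the transcription factors Foxp1 (-0.13, adjusted p = 0.076), Bcl11b (-0.09, adjusted p = 0.157) and Foxp2 (0.04, adjusted p = 0.643). Summed over the 28 genes, the level was 24850 to 29880 CPM in Msh3-/- mice and 19790 to 25270 CPM in Q140 x Msh3-/- mice, so the sums of the groups overlapped slightly.

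Markers of the indirect pathway fell in 5 of 7 cases and rose in 0, beside 3.84% of all genes tested that fell. Penk, the enkephalin precursor (ENSMUSG00000045573, chromosome 4, 4133531 to 4138819), had 1504 to 1816 CPM in Msh3-/- mice (median 1626) and 973.3 to 1356 CPM in Q140 x Msh3-/- mice (median 1137). The groups did not overlap, and Penk fell by 0.52 (SE 0.0531, adjusted p = 1.82e-09). Adora2a, the adenosine receptor of these neurons, fell by 0.38 (SE 0.0642, adjusted p = 7.37e-05) from 371 to 465 CPM to 268.9 to 382.7 CPM. The overlap came from 1 mouse, Q140 x Msh3-/- F3 at 382.7 CPM, which also had the highest Penk, Pde10a, Ppp1r1b and Adcy5 of its group. Drd2, the D2 receptor, fell by 0.27 (SE 0.0425, adjusted p = 1.43e-05) and Gpr6, an orphan receptor of these neurons, by 0.24 (SE 0.0491, adjusted p = 0.000752). The remaining members were Upb1, which fell by 0.38 (adjusted p = 0.0109), Plxnd1 (-0.075, adjusted p = 0.374) and Sp9 (0.02, adjusted p = 0.908). Together the 7 genes summed to 2510 to 2955 CPM and 1759 to 2364 CPM in the 2 groups, without overlap.

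Direct-pathway markers moved less uniformly, with 3 lower and 1 higher of 9, beside 3.84% lower and 4.01% higher of all genes tested. Drd1, the D1 receptor, had 310.4 to 364.5 CPM in Msh3-/- mice (median 331.8) and 248.4 to 299 CPM in Q140 x Msh3-/- mice (median 276.9), with no overlap. It fell by 0.29 (SE 0.0415, adjusted p = 1.54e-06), and Chrm4, the M4 muscarinic receptor, fell by 0.26 (SE 0.0439, adjusted p = 3.47e-05). Isl1, a transcription factor of direct-pathway development, was higher by 0.16 (adjusted p = 0.0266) and Sfxn1, a mitochondrial serine transporter, was lower by 0.18 (adjusted p = 0.0246). Both of these calls were lost on leaving out any 1 of 4 libraries, with adjusted p = 0.0632 for Isl1 without Q140 x Msh3-/- F4 and 0.0708 for Sfxn1 without Msh3-/- F2. The neuropeptide genes did not pass: Tac1, the substance P precursor, was at 0.08 (SE 0.053, adjusted p = 0.409; 95% interval -0.03 to 0.19) and Pdyn, the dynorphin precursor, at 0.11 (SE 0.0757, adjusted p = 0.435; -0.04 to 0.26). The median of the 9 genes was 0.08, while their summed level had a log2 ratio of -0.102, so the 2 summaries differ in sign.

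**Figure D1:**
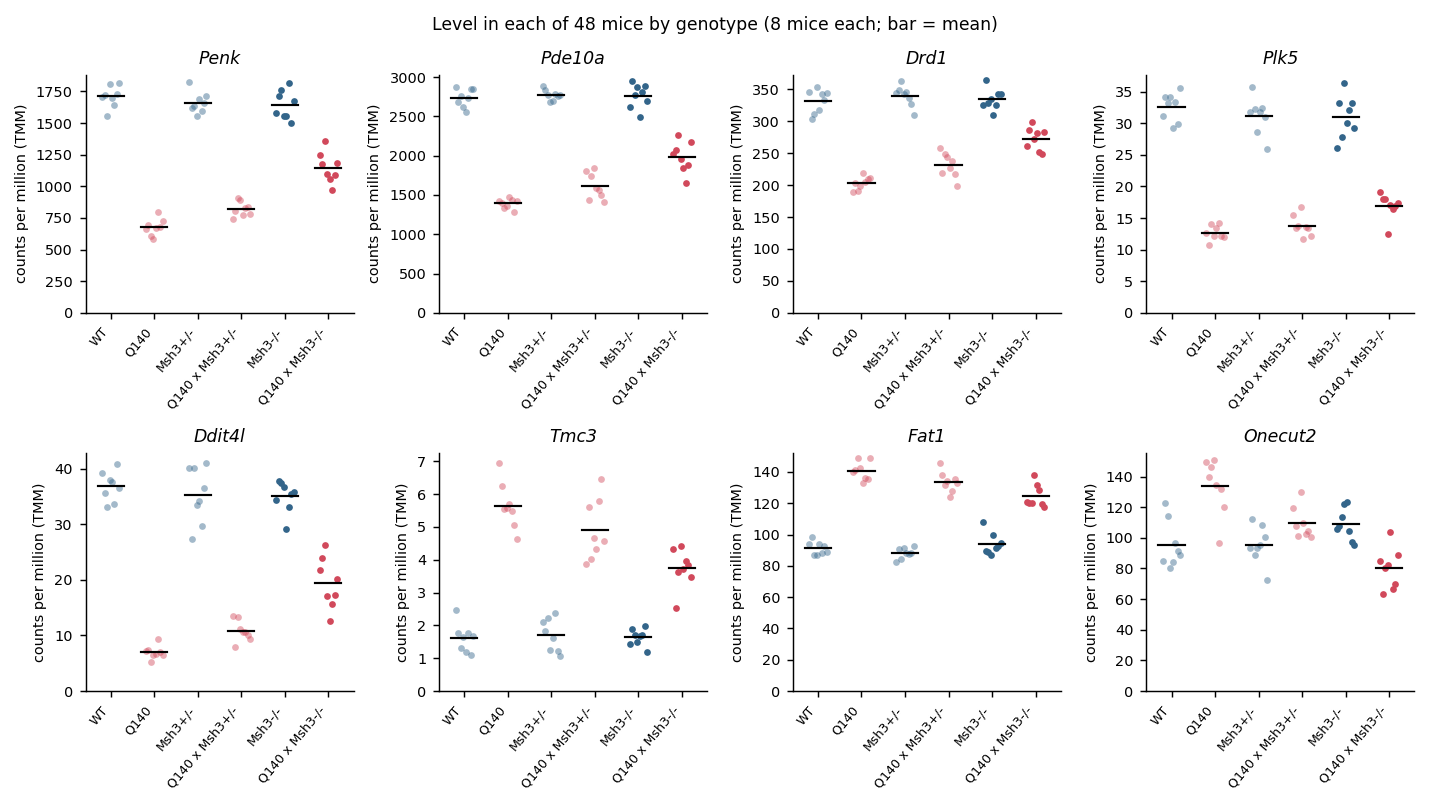
Level of 8 genes in each of the 48 mice (vertical axes, TMM-scaled CPM, from 0; horizontal axes, the 6 genotypes with 8 mice each). Points are mice, spread sideways for visibility, and bars are means; the darker points are the 2 groups with Msh3-/-. Penk, Pde10a and Drd1 of Q140 x Msh3-/- mice lay below all Msh3-/- mice and above all Q140 mice, and Onecut2 was lower with Q140 in Msh3-/- mice and higher with Q140 in WT mice.

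The following sequences are promoters of a gene that fell and a gene that rose, each with 1 copy of the palindrome TGACGTCA, the full cAMP response element, in capitals. They are shown because cAMP signalling genes were among those that fell, and each covers 250 bases before to 50 after the gene start in RefSeq (GRCm38.p6).
Gpr6, chr10:41072241-41072540, minus strand: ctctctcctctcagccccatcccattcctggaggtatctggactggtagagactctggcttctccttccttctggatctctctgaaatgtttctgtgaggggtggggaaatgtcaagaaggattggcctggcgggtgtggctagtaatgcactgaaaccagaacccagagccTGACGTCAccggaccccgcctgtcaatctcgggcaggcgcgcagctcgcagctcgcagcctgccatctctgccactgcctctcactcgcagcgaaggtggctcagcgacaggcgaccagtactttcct
Cbx8, chr11:119040864-119041163, minus strand: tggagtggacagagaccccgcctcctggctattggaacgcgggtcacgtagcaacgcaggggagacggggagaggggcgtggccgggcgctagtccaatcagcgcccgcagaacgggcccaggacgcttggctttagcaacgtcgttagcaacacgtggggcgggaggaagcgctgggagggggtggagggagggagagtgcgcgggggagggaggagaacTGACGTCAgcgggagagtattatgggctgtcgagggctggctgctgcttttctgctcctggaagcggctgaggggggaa
TGACGTCA was present in 12 of the 512 called lower genes with a promoter in the table (2.34%) and in 25 of the 562 called higher (4.45%). Among all 12493 tested genes with a promoter the share was 3.08%, and among all 27025 promoters of this length it was 1.88%. The shorter TGACG, searched on both strands and contained in every TGACGTCA, was in 27.0% of the genes called lower, 31.0% of those called higher and 29.7% of those tested. These shares describe letters in 300-base windows and do not show binding.

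Among genes whose average log2 CPM was 1 or more, the largest falls were 0.86 to 1.30 on the log2 scale. Phex, a peptidase gene on the X chromosome, fell by 1.30 (SE 0.217, adjusted p = 6e-05), from 4.359 to 10.43 CPM (median 5.157) to 1.757 to 3.247 CPM (median 2.418). Cpne9, a copine, went from a median of 19.55 CPM to 9.027 CPM and fell by 1.21 (SE 0.12, adjusted p = 1.82e-09). The 2 lowest values, 5.255 and 5.448 CPM, were again in males M2 and M1. Gpx6, of the glutathione peroxidase family, had 7.359 to 16.97 CPM (median 11.24) against 3.47 to 7.27 CPM (median 4.849), with no overlap, and fell by 1.14 (SE 0.18, adjusted p = 2.49e-05). It was the only 1 of 6 tested glutathione peroxidase genes to pass. Plk5, a polo-like kinase family member, had the smallest adjusted p of the genes that fell. Its levels were 26.04 to 36.42 CPM (median 31.1) and 12.45 to 19.04 CPM (median 17.16), a fall of 0.87 (SE 0.0706, adjusted p = 1.04e-12).

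Ddit4l, a stress-responsive inhibitor of mTOR signalling, had 29.22 to 37.85 CPM in Msh3-/- mice (median 35.64) and 12.61 to 26.21 CPM in Q140 x Msh3-/- mice (median 18.77), and fell by 0.86 (SE 0.106, adjusted p = 2.3e-07). No value of one group reached the other. Serpinb1b (-1.17), Sec14l3 (-1.13), Gm9754 (-0.97), Slc4a11 (-0.94), a membrane transporter, and Odf4 (-0.93) also fell. Wnt8b, a developmental signalling ligand, fell by 1.098 (adjusted p = 0.0312) and lost its call on leaving out any 1 of 7 libraries, with adjusted p = 0.0783 without Q140 x Msh3-/- F4. Fmod, the matrix protein fibromodulin, fell by 0.89 (adjusted p = 0.0129), but Msh3-/- F1 decided the call: without it the value was -0.594 (adjusted p = 0.0744), and the highest Msh3-/- level was 8.723 CPM beside a median of 3.01 CPM.

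The largest rises were 0.66 to 1.19 on the log2 scale and were in genes of low level. Tmc3, of the transmembrane channel-like family, rose by 1.19 (SE 0.144, adjusted p = 5.43e-08), from 1.193 to 1.992 CPM (median 1.687) to 2.517 to 4.424 CPM (median 3.792). Rprm, a p53-inducible cell cycle arrest gene, rose by 1.07 (SE 0.116, adjusted p = 8.05e-09), from 3.067 to 5.46 CPM to 6.349 to 11.86 CPM. Neither gene had overlapping groups. Nts, the neurotensin precursor, had 1.57 to 3.305 CPM (median 2.121) against 3.073 to 5.433 CPM (median 4.585) and rose by 0.95 (SE 0.166, adjusted p = 8.53e-05). The overlap was small, with Msh3-/- F3 above the lowest 2 Q140 x Msh3-/- mice. Ipcef1 (0.80), Slitrk6, a synaptic adhesion protein (0.72), Pcdh20 (0.69), Abhd1 (0.69), Fam196b (0.66) and Stc2, a stanniocalcin (0.66), were among those that followed.

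The desmosomal genes Dsp (0.79, adjusted p = 0.016) and Dsg2 (0.74, adjusted p = 0.0499) were also in that set, but both calls were fragile. Dsp did not pass without Q140 x Msh3-/- F4 (0.661, adjusted p = 0.0644), and Dsg2 was lost on leaving out any 1 of 11 of the 16 libraries, with adjusted p = 0.106 without that same mouse. Fat1, a giant atypical cadherin, combined a modest rise with a small adjusted p. It had 87.05 to 108 CPM in Msh3-/- mice (median 92.17) and 117.4 to 137.8 CPM in Q140 x Msh3-/- mice (median 120.3), a rise of 0.40 (SE 0.0375, adjusted p = 4.54e-11).

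**Figure D2:**
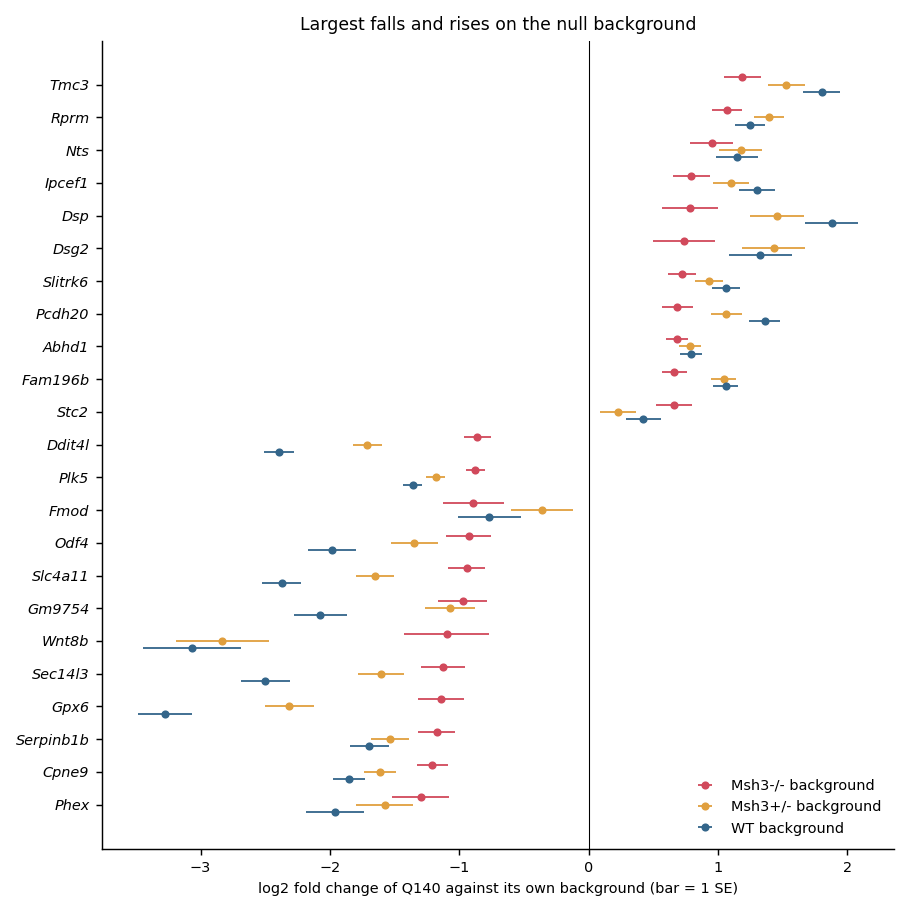
Log2 fold change of Q140 against its own background (horizontal axis; points, estimates; bars, 1 SE) for the 12 largest falls and 11 of the 12 largest rises in Q140 x Msh3-/- minus Msh3-/- at an average log2 CPM of 1 or more. Gpx6 was at -1.14 on the Msh3-/- background, -2.31 on the Msh3+/- background and -3.27 on the WT background, while Abhd1 was at 0.69, 0.78 and 0.79.

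The protocadherins are a family of cell adhesion genes, and those that passed the test were all higher. Of 57 clustered protocadherins, which lie in tandem on one chromosome and give neurons their surface identity, 20 rose and 0 fell, against 4.01% of all genes tested that rose, and the median was 0.153. The other 37 did not pass, and 10 of the 57 had values below 0. Pcdhb9 went from 13.63 to 15.65 CPM up to 17.14 to 22.9 CPM (0.46, SE 0.058, adjusted p = 1.48e-07). Pcdhb20 (0.41), Pcdhb19 (0.42) and Pcdhga2 (0.43) also had no overlap between groups. These genes are close paralogs, so the assignment of reads among them is uncertain. The count was 14 without the 4 libraries that stood apart and 17 without Q140 x Msh3-/- F4. The summed level of the 57 genes overlapped between groups, with 816.8 to 953.6 CPM and 919 to 1051 CPM.

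Among 11 non-clustered protocadherins 5 rose and 0 fell, beside 4.01% of all genes tested that rose. Pcdh10 rose by 0.36 (SE 0.0415, adjusted p = 1.22e-08), from 226.1 to 265.4 CPM to 296.1 to 335.2 CPM. Pcdh19, a gene on the X chromosome, rose by 0.57 (SE 0.0999, adjusted p = 0.000117) and Pcdh11x by 0.29 (adjusted p = 0.00204), and Pcdh9 rose by 0.15. Summed over the 11 genes, the groups did not overlap (842.2 to 918.1 CPM and 935.5 to 1017 CPM).

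Of 31 Polycomb group genes, which silence developmental genes through chromatin, 3 rose and 0 fell (9.68% called), against 4.01% of all genes tested that rose. The other 28 did not pass, 18 of the 31 had values below 0, and the median of the list was -0.029. Cbx8, a subunit of Polycomb repressive complex 1, had 6.07 to 7.503 CPM in Msh3-/- mice (median 6.982) and 7.662 to 11.6 CPM in Q140 x Msh3-/- mice (median 9.125). It rose by 0.49 (SE 0.0939, adjusted p = 0.000361), and every Q140 x Msh3-/- mouse was above every Msh3-/- mouse. Sfmbt2 had 2.385 to 2.953 CPM (median 2.714) and 2.656 to 5.499 CPM (median 4.071), and rose by 0.57 (SE 0.143, adjusted p = 0.00739). With limma on log2(FPKM + 1) its adjusted p was 0.0719. For Sfmbt2, Q140 x Msh3-/- M4 and F2 were within the range of Msh3-/- mice. The catalytic subunits Ezh1 (-0.04) and Ezh2 (-0.18) did not pass (adjusted p = 0.463 and 0.2). With total counts 6 of the 31 rose.

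Of 18 developmental transcription factors tested, 0 rose and 1 fell (5.56%, beside 3.84% of all genes tested that fell). The list held 28 factors, and those not tested had too few counts for the low-count filter. For 5 of the 18 the difference from the WT-background effect was negative and passed, beside 2.06% of all genes tested. A gene can pass that filter through 1 genotype alone, such as Q140 where it is high. Such a gene is more likely to have a negative difference, so the 5 cannot be set against that share. Onecut2, a cut-homeobox gene, had 95.57 to 123.2 CPM in Msh3-/- mice (median 107) and 63.67 to 103.7 CPM in Q140 x Msh3-/- mice (median 81.5), and fell by 0.44 (SE 0.0924, adjusted p = 0.00148). All 8 Q140 x Msh3-/- mice were below the Msh3-/- mean, and the highest of them, M1, was the only one inside the Msh3-/- range. In Q140 minus WT the value was 0.48, and the difference between the 2 effects was -0.92 (SE 0.13, adjusted p = 4.04e-06). For its paralog Onecut1, 24 counts were summed in the 8 Q140 x Msh3-/- mice and 30 in the 8 Msh3-/- mice, a fold of 0.739 with a 95% counting interval of 0.413 to 1.31. In Q140 against WT mice the counts were 1180 and 7. These intervals are for counting error in the summed libraries and not for the spread between mice.

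Signalling genes of the striatum moved in both directions, with more falls than rises in most lists, and these lists share members with the identity list. Of all genes tested, 3.84% were called lower and 4.01% higher, 7.86% together, with a median of -0.003 on the log2 scale. The counts of this and the following paragraphs are to be read beside these shares. Calcium signalling had 11 falls and 1 rise among 23 genes (52.2% called, median -0.099). Ryr1 fell by 0.85 (SE 0.123, adjusted p = 7.08e-06) from 109.5 to 170.9 CPM to 61.17 to 96.88 CPM, Atp2b1, a plasma membrane calcium pump, by 0.25 (SE 0.0394), and Itpr1, the IP3 receptor, by 0.22 (SE 0.0408). The member that rose was Cacna2d1, an auxiliary subunit of calcium channels (0.13, adjusted p = 0.00993), and 0 of the 23 rose without Q140 x Msh3-/- F4, while Cacna1c, Cacna1e and Cacna2d3 fell by 0.15, 0.24 and 0.17. The kinases Camkk2 (-0.22), Camk4 (-0.16) and Camk2b (-0.10) fell too.

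Of 24 phosphodiesterases and adenylyl cyclases 5 fell and 1 rose (25.0% called, median 0.003). Beside Pde10a, Pde1b and Adcy5 these were Pde7b (-0.20), Pde8a (-0.22) and Pde4d, which hydrolyses cAMP and rose by 0.32 (SE 0.0511, adjusted p = 1.46e-05). Pde4d had 31.28 to 42.19 CPM in Msh3-/- mice and 40.83 to 54.86 CPM in Q140 x Msh3-/- mice. G protein and RGS genes had 7 falls and 3 rises among 22 (45.5% called, median -0.045). The regulators Rgs4 (-0.42) and Rgs14 (-0.29) fell with Rgs9, and the orphan receptor Gpr149 rose by 0.57 (SE 0.0859, adjusted p = 7.19e-06). With total counts 6 of the 22 rose.

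Potassium channel genes had 7 falls and 2 rises among 22 (40.9% called, median -0.028). Kcnh4, a voltage-gated channel of the striatum, fell by 0.52 (SE 0.0744, adjusted p = 3.33e-06) from 72.41 to 99.9 CPM to 52.47 to 72.76 CPM. Kcnab1 (-0.30) and Kcnt1 (-0.33) fell as well, and Kcnj3, an inward rectifier opened by G proteins, was higher by 0.27 (adjusted p = 0.000564). Glutamate and GABA receptor genes went both ways, with 4 falls and 3 rises among 27 (25.9% called, median 0.003). Gabrd, the delta subunit of tonic GABA-A receptors, fell by 0.21 (SE 0.0407) with no overlap between groups (124.6 to 139.5 CPM and 101.5 to 124.1 CPM). The GABA-A subunits Gabra5 (0.35) and Gabrb2 (0.23) rose.

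Among 14 opioid, cannabinoid and serotonin receptor genes 2 rose and 1, Cnr1, fell (21.4% called, median -0.009). Htr2c, the 5-HT2C receptor, had 44.62 to 71.89 CPM in Msh3-/- mice (median 61.7) and 78.36 to 104.2 CPM in Q140 x Msh3-/- mice (median 87.44), with no overlap. It rose by 0.58 (SE 0.0822, adjusted p = 4.09e-06), and Htr2a, the 5-HT2A receptor, rose by 0.53 (SE 0.128, adjusted p = 0.00612). Ntrk3, the neurotrophin-3 receptor, was the only 1 of 7 neurotrophin system genes to pass, with a fall of 0.30 (SE 0.0485, adjusted p = 3.1e-05). Bdnf was at 0.63 with adjusted p = 0.339. Of 12 activin and follistatin genes, Acvr1c fell by 0.34 (SE 0.0498), and Fstl5 and Acvr2a rose by 0.33 (SE 0.056) and 0.29 (SE 0.0603). Of 16 immediate early genes 2 fell (12.5% called, median -0.108), Jun (-0.28, adjusted p = 0.00997) and Homer1 (-0.32, adjusted p = 0.0274). Homer1 lost its call on leaving out any 1 of 5 libraries, with adjusted p = 0.0801 without Msh3-/- M3. Fos (0.29), Egr1 (0.01) and Arc (-0.13) did not pass.

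**Figure D3:**
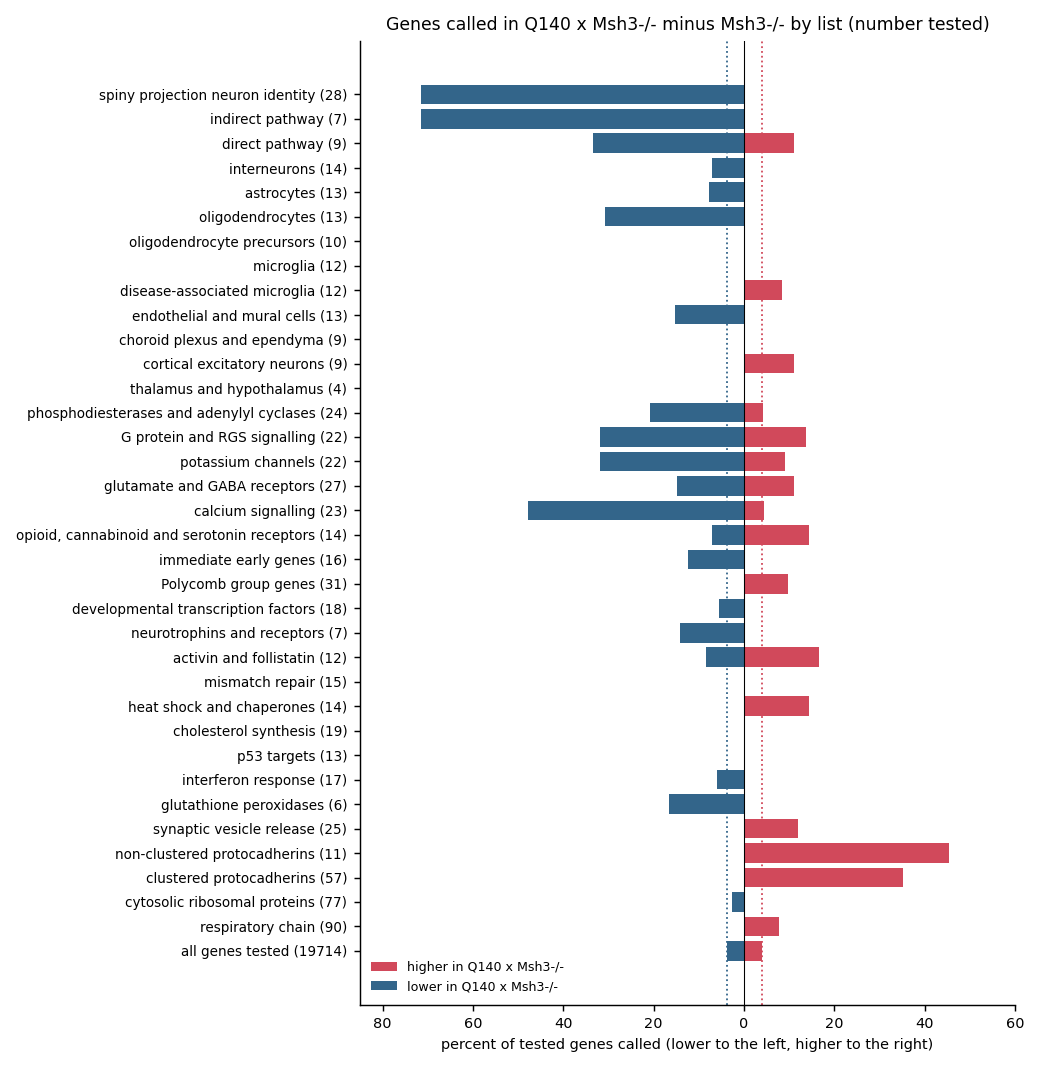
Percent of the tested genes of each list (vertical axis, number tested in brackets) called lower (to the left) or higher (to the right) in Q140 x Msh3-/- minus Msh3-/-. The dotted lines are the shares over all genes tested, 3.84% lower and 4.01% higher; spiny projection neuron identity genes reached 71.4% lower, and clustered protocadherins 35.1% higher.

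Among markers of other cell types, 4 of 13 for oligodendrocytes (30.8%) and 2 of 13 for endothelial and mural cells (15.4%) fell, beside 3.84% of all genes tested. Microglia (12 genes), oligodendrocyte precursor (10), choroid plexus and ependymal (9) and thalamic and hypothalamic (4) markers had 0 calls. Their summed levels overlapped, for example 468.8 to 585 CPM and 435.4 to 590.2 CPM for microglia. Of 13 astrocyte markers 1 fell, the glutamate transporter Slc1a2 (-0.14, adjusted p = 0.0195), and of 14 interneuron markers 1 fell, the nitric oxide synthase Nos1 (-0.13, adjusted p = 0.0112). The Slc1a2 call was lost on leaving out any 1 of 3 libraries (adjusted p = 0.0606 without Msh3-/- F2). Among 12 genes of disease-associated microglia, Lpl, a lipase that neurons also express, rose by 0.18 (adjusted p = 0.0168), and not without Q140 x Msh3-/- F4 (adjusted p = 0.0586).

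Of 13 oligodendrocyte markers 4 fell, among them the myelin protein Mal (-0.21), the enzyme Aspa (-0.21) and the tight junction gene Cldn11 (-0.18). Mbp (-0.05), Mog (0.03) and Mag (0.04) did not pass. Without Q140 x Msh3-/- F4 the count was 2, and single omissions ended the calls of Aspa (adjusted p = 0.0587 without Msh3-/- F1), Mal (0.0819 without Msh3-/- F4) and Cldn11 (0.0804 without Msh3-/- F4). The summed level of the 13 was 5863 to 6816 CPM and 5405 to 6392 CPM. Of 13 endothelial and mural markers 2 fell, the smooth muscle actin Acta2 (-0.36, adjusted p = 0.00486) and the VEGF receptor Flt1 (-0.55, adjusted p = 0.014). Flt1 spread widely in Q140 x Msh3-/- mice, from 27.83 CPM in M2 and 32.72 CPM in M4 to 82.08 CPM in F3, beside 77.75 to 94.14 CPM in Msh3-/- mice. The endothelial markers Cldn5 (-0.03), Pecam1 (-0.08) and Kdr (0.02) did not pass. In a fit of the 16 libraries alone Flt1 had an adjusted p of 0.0929. The part of these markers in the results for neuronal genes was not tested.

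Cortical excitatory neuron markers were uneven between mice. Of 9, only Cux2 passed (0.28, adjusted p = 0.023), and its call was lost on leaving out any 1 of 4 libraries (adjusted p = 0.0598 without Q140 x Msh3-/- F2). Slc17a7, the cortical vesicular glutamate transporter, a gene singled out after its values were seen, had 2.95 to 34.48 CPM in Msh3-/- mice and 4.036 to 64.36 CPM in Q140 x Msh3-/- mice. The highest mouse was F2 in both groups, and the difference did not pass (0.87, adjusted p = 0.404). Summed over the 9 genes, levels were 909.8 to 1284 CPM and 841.4 to 1114 CPM.

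Calls were few or absent in the lists of mismatch repair, cholesterol synthesis, p53 target and interferon-response genes. All 15 mismatch repair genes were without a call, among them Msh6 (0.08, adjusted p = 0.386) and Mlh3 (0.02, adjusted p = 0.796). Neither 19 cholesterol synthesis genes nor 13 p53 targets had a call, and among 17 interferon-response genes only Stat2 fell (-0.15, adjusted p = 0.0459), a call lost on leaving out any 1 of 12 libraries. Of 14 heat shock and chaperone genes 2 rose (14.3%, beside 4.01% of all genes tested): Hspa1a (0.51, adjusted p = 0.0343) and Hspa8 (0.18, adjusted p = 0.0432). These were lost without any 1 of 7 and any 1 of 10 libraries, with adjusted p up to 0.157 (without Q140 x Msh3-/- F2) and 0.103 (without Msh3-/- M1).

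Respiratory chain genes had 7 rises and 0 falls among 90 (7.78%). Of all genes tested, 4.01% rose and 7.86% were called in either direction. The respiratory chain rises numbered 17 under total counts, 2 without the 4 libraries that stood apart and 3 without Q140 x Msh3-/- F4. Ndufc2 rose by 0.13 (adjusted p = 0.00625). Of 77 cytosolic ribosomal protein genes 2 fell, Rpl13 and Rpl10a (2.6%, beside 3.84% of all genes tested). Both calls were lost on leaving out single libraries (adjusted p = 0.11 for Rpl13 without Msh3-/- F1, and 0.0997 for Rpl10a without Q140 x Msh3-/- F4). Values were above 0 for 51 of the 77, beside 9709 of all 19714 genes tested, and their median was 0.026. With total counts 2 of the 77 rose and 1 fell. Of 25 synaptic vesicle release genes 3 rose (12.0%, beside 4.01% of all genes tested): Sv2a (0.12), Syn3 (0.14) and Syn2 (0.11). The Syn2 call was lost on leaving out any 1 of 9 libraries (adjusted p = 0.0685 without Msh3-/- M2).

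Genes within 5 Mb of Htt were called more often than genes elsewhere. Of 151 tested, 22 passed (14.6%), 10 higher and 12 lower, beside 7.81% of all other genes. In bins of distance, leaving out Htt itself, the counts were 6 of 37 within 1 Mb, 4 of 41 from 1 to 2.5 Mb, 12 of 72 from 2.5 to 5 Mb and 4 of 58 from 5 to 10 Mb (6.9%). The knock-in allele sits in this interval in every Q140 mouse and in no control, so an effect of DNA linked to it and an effect of the repeat cannot be told apart here.

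Abhd1 (chromosome 5, 30950066 to 30955091), 3.81 Mb from Htt, had 3.75 to 5.428 CPM in Msh3-/- mice and 6.308 to 8.783 CPM in Q140 x Msh3-/- mice and rose by 0.69 (SE 0.084, adjusted p = 6.86e-08). Dpysl5 (30711564 to 30799375), which encodes a collapsin response mediator of axon guidance, rose by 0.32 (SE 0.0348, adjusted p = 2.91e-09), from 44.29 to 51.23 CPM to 56.53 to 65.77 CPM. Atraid (31048312 to 31054623) fell by 0.30 (SE 0.0333, adjusted p = 8.49e-09), from 37.83 to 43.12 CPM to 29.88 to 35.07 CPM. None of the 3 had overlapping groups. Their values in Q140 minus WT were of like size, at 0.79, 0.29 and -0.31, and the differences between the effects were -0.11 (95% interval -0.35 to 0.13), 0.03 (-0.07 to 0.13) and 0.02 (-0.08 to 0.11). The pseudogene Gm2420 (32720330 to 32736194), 2.03 Mb away, summed to 250 counts in the 8 Q140 x Msh3-/- mice and to 4 in the 8 Msh3-/- mice, a fold of 57.7 with a 95% counting interval of 22.3 to 214.

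By contrast, Zfyve28, 0.47 Mb from Htt, and Adra2c, the alpha-2C adrenergic receptor 0.37 Mb away, fell by 0.21 and 0.16 here and by 0.57 and 0.51 on the WT background. Their differences of 0.36 each passed the threshold (adjusted p = 6.92e-05 and 5.19e-05). Among the 60 tested genes within 5 Mb of Msh3, where both groups share the genotype, 3 rose and 1 fell (6.67%). These were Arsb (0.15), Atp6ap1l (0.27), Jmy (0.11) and Homer1. Jmy was lost on leaving out any 1 of 4 libraries (adjusted p = 0.081 without Q140 x Msh3-/- F4), and Atp6ap1l without the 4 libraries that stood apart (adjusted p = 0.0737).

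**Figure D4:**
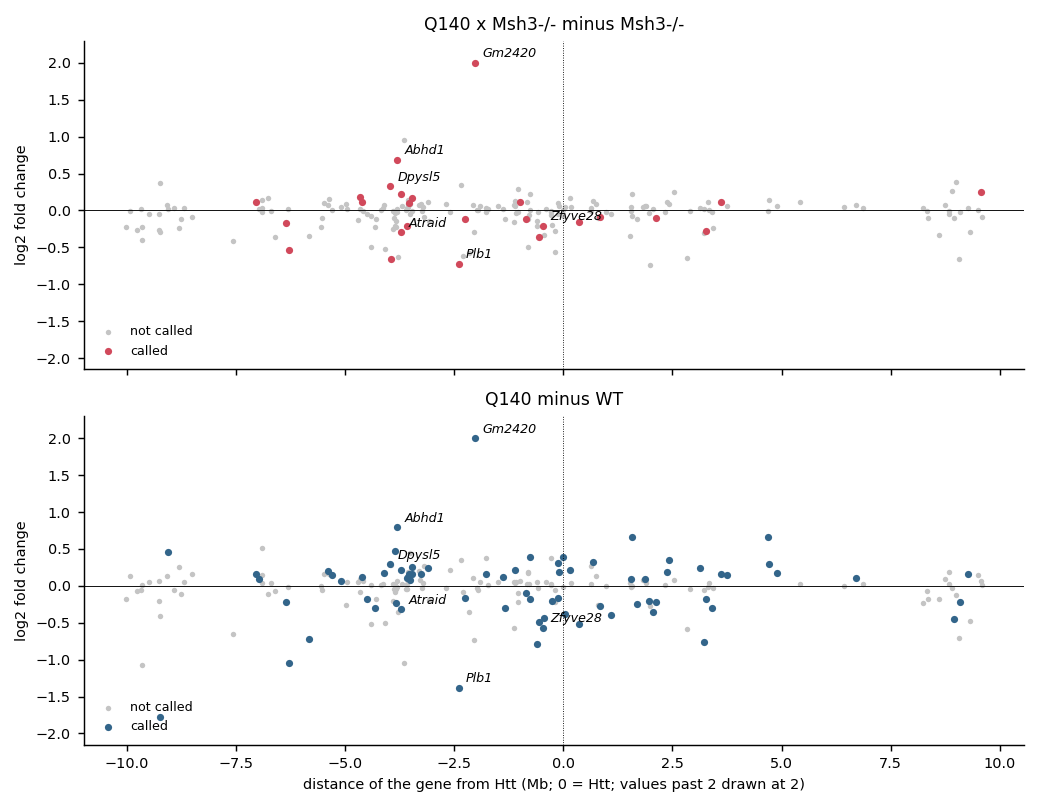
Log2 fold change of genes within 10 Mb of Htt (vertical axes; values past 2 drawn at 2) against their distance from Htt (horizontal axis, Mb), for Q140 x Msh3-/- minus Msh3-/- (upper panel) and Q140 minus WT (lower panel). Coloured points are called genes. Abhd1, Dpysl5, Atraid and Gm2420 are at like values in both panels after that limit. Zfyve28 and Plb1 lie nearer 0 in the upper panel. The difference between the effects passed for Zfyve28 and not for Plb1 (0.65, edgeR interaction adjusted p = 0.217).

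The Q140 effect reached fewer genes in mice labelled Msh3-/- than on either other background. It reached 1549 genes (7.86%) here, 4247 (21.5%) in Q140 x Msh3+/- minus Msh3+/- and 6506 (33.0%) in Q140 minus WT, with the same number of mice. Of the 1549 genes, 1304 were called in the same direction in Q140 minus WT, which is 84.2% of this list and 1304 of 6506 in that one. Another 239 were not called in Q140 minus WT, though 197 of them had the same sign there, and 6 were called in the opposite direction. With the Msh3+/- background the shared calls were 1138, or 73.5% of this list and 26.8% of that one. Called in the same direction on all 3 backgrounds were 1080 genes, 525 higher and 555 lower, and 666 of them had sizes in the order null below heterozygous below WT.

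Among the 1304 genes called on both backgrounds, the effect was smaller here than in Q140 minus WT for 1129 (86.6%), and the median ratio of the 2 effects was 0.627. The ratio was 0.685 for genes that were higher and 0.536 for genes that were lower. It was 0.596 with total counts, 0.658 without the 4 libraries that stood apart and 0.601 without 2 WT and 2 Q140 mice whose sample names have another prefix. Requiring a call on both backgrounds favours larger values on both. Over all 6506 genes called in Q140 minus WT the median ratio was 0.375, a choice that favours larger values on the WT background. Against the Msh3+/- background the median ratio was 0.748 over the 1138 genes called on both and 0.443 over all 4247 called there.

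The difference between the 2 effects was itself tested for every gene. It passed for 1213 genes (6.15%) against the WT background and for 256 (1.30%) against the Msh3+/- background. The latter number was 152 without the 4 libraries that stood apart and 447 with DESeq2. Of the 1213, 1169 were called in Q140 minus WT, and for 782 of these the WT-background effect was a fall. The split of 806 higher (4.09%) and 407 lower (2.06%) became 537 and 1194 with total counts, and for the Msh3+/- background 183 higher (0.928%) and 73 lower (0.370%) became 93 and 176. Without the 4 mice with another name prefix, 823 genes passed against the WT background.

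Spiny projection neuron identity genes gave 24 positive and 0 negative differences among 28 against the WT background (4.09% of all genes were positive), meaning falls that were smaller here, and 10 and 0 against the Msh3+/- background. Penk fell by 1.33 in Q140 minus WT and by 1.02 in Q140 x Msh3+/- minus Msh3+/-. Its differences of 0.81 and 0.50 both passed (adjusted p = 2.9e-10 and 0.000141). The highest Q140 mouse had 800.7 CPM of Penk, below the lowest Q140 x Msh3-/- mouse at 973.3 CPM. Pde10a (0.50, adjusted p = 2.24e-07), Adcy5 (0.51, adjusted p = 5.83e-09) and Drd1 (0.41, adjusted p = 1.63e-06) had differences in the same direction. Among the largest were Gpx6 (2.13, adjusted p = 6.34e-07), Abhd11os, a noncoding RNA (1.90, adjusted p = 7.4e-09), Fst, the activin antagonist follistatin (1.69, adjusted p = 5.03e-08), and Ddit4l (1.54, adjusted p = 5.83e-09). Fst did not pass on the Msh3-/- background (-0.13, SE 0.137, adjusted p = 0.652) and fell by 1.82 on the WT background.

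Differences in the other direction, where a rise was smaller here, included Sfmbt2 (-1.77, adjusted p = 2.08e-08), Kazald1 (-1.36, adjusted p = 1.84e-06), Dsp (-1.09, adjusted p = 0.0167), Tpx2, a spindle assembly factor (-1.06, adjusted p = 4.76e-05), and Emx2os (-1.04, adjusted p = 3.7e-05). Sfmbt2 was at 10.62 to 19.35 CPM in Q140 mice and at 2.656 to 5.499 CPM in Q140 x Msh3-/- mice. Some effects were of like size on both backgrounds. Rprm rose by 1.07 here and 1.248 on the WT background, Gpr149 by 0.57 and 0.42, and Pcdh10 by 0.36 and 0.30, and none of these differences passed (adjusted p = 0.619, 0.555 and 0.586). The 95% intervals of the differences were -0.51 to 0.15 for Rprm, -0.09 to 0.39 for Gpr149 and -0.05 to 0.19 for Pcdh10.

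**Figure D5:**
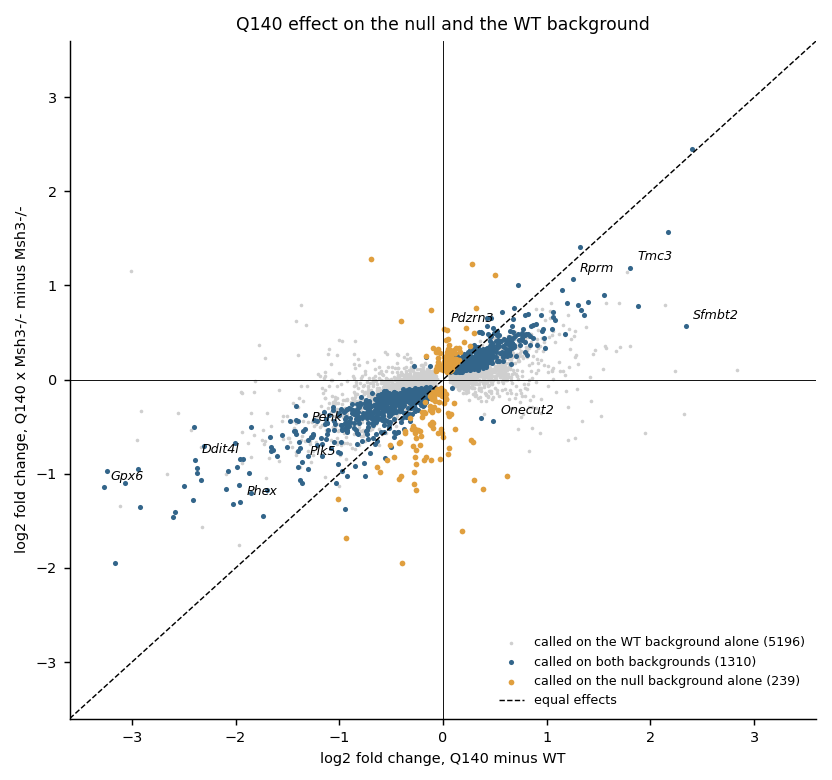
Log2 fold change in Q140 x Msh3-/- minus Msh3-/- (vertical axis) against Q140 minus WT (horizontal axis) for genes called in either; 10 called genes lie outside the axes. Most points called on both backgrounds (1304 in the same direction and 6 in opposite directions) lie between the horizontal axis and the dashed line of equal effects.

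The 6 genes called in opposite directions were Onecut2, Mtfp1, Fam124a, Synpr, Ddhd2 and 1110003F10Rik. Mtfp1, a mitochondrial fission protein, rose by 0.24 here (SE 0.0632, adjusted p = 0.0101) and fell by 0.17 on the WT background, and Synpr, a synaptic vesicle protein, was at 0.15 (adjusted p = 0.0497) and -0.28. For all 6 the difference between the effects passed. The calls here of Fam124a, Synpr, Ddhd2 and 1110003F10Rik were lost on leaving out any 1 of 7, 12, 3 and 13 libraries, with adjusted p up to 0.12, 0.133, 0.0669 and 0.0982. Those values were without Q140 x Msh3-/- F3, Msh3-/- F4, Msh3-/- F4 and Q140 x Msh3-/- F3.

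Of the 239 genes called here and not in Q140 minus WT, 59 were called in Q140 x Msh3+/- minus Msh3+/- and 180 in neither, and for 21 the difference from the WT-background effect passed. Mef2c, a transcription factor of neuronal activity and synapse number, had 139.9 to 172.5 CPM in Msh3-/- mice (median 151.3) and 172.5 to 196.6 CPM in Q140 x Msh3-/- mice (median 182.6). It rose by 0.27 (SE 0.0382, adjusted p = 1.89e-06) and was at 0.07 in Q140 minus WT, and the difference of 0.19 passed (adjusted p = 0.0206). WT mice had 156.9 to 170.9 CPM and Q140 mice 163.1 to 184.8 CPM. Pdzrn3, a ubiquitin ligase of synapses, rose by 0.54 (SE 0.0842, adjusted p = 1.09e-05) and was at 0.01 on the WT background (difference 0.53, adjusted p = 0.00256). Kcnf1, a silent potassium channel subunit, rose by 0.32 (SE 0.061) with no overlap between groups (47.85 to 63.68 CPM and 65.38 to 89.3 CPM), and its difference passed (0.27, adjusted p = 0.0483).

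Rev1, a translesion DNA polymerase, fell by 0.17 (SE 0.0323, adjusted p = 0.000357), from 44.51 to 47.63 CPM to 37.18 to 42.7 CPM, and its difference from the value of -0.01 on the WT background passed (-0.16, adjusted p = 0.0273). Kctd8 (0.31), Sema3e, a guidance cue (0.22), and Slitrk5, a synaptic adhesion protein (0.18), rose without a difference that passed (adjusted p = 0.0507, 0.0685 and 0.293). Ttc22 fell by 0.55, also without one (adjusted p = 0.261). Several of the genes that rose, such as Mef2c, Kcnf1 and Pdzrn3, are also expressed in cortex. Kcnf1 and Pdzrn3 were highest in Q140 x Msh3-/- F2, at 89.3 and 13.6 CPM, the mouse with 64.36 CPM of Slc17a7. Without that mouse both remained called in Q140 x Msh3-/- minus Msh3-/-, with adjusted p = 0.00126 and 5.51e-05. Their differences from the WT-background effect were not tested without it. Slc17a7 was also at 25.36 and 25.82 CPM in Q140 x Msh3-/- F3 and M3, beside 2.95 to 34.48 CPM in Msh3-/- mice. Leaving out F2 alone therefore does not take cortical RNA out of the comparison. The part of cortical RNA in these genes was not tested.

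The effect had the same sign in both sexes for all 1549 called genes. Tested within each sex, 402 genes passed in females (178 higher, 224 lower) and 335 in males (143 higher, 192 lower), with 4 mice per group, and 155 passed in both in the same direction. Penk fell by 0.44 in females and 0.60 in males, Pde10a by 0.43 and 0.53, and Plk5 by 0.87 and 0.88. The difference between the sexes passed for 0 genes with edgeR, with 536 at an unadjusted p under 0.05, and for 0 with DESeq2 (543). The calls were made with both sexes together, which favours equal signs.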

How the data were processed

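Striatal RNA was sequenced from 48 mice with a stranded kit, per the labels' protocols. The authors deposited whole-number counts per gene and FPKM values, which equal the count times a gene constant over the library total (largest relative deviation 4e-07 over 19144 genes). STAR 2.7.5c, SAMtools 1.10, HTSeq 0.12.3 and GRCm38 are named per the submitters' processing notes. Of 48795 gene IDs, 48349 matched GENCODE M21.

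The deposited counts were tested with edgeR 4.0.16 (R 4.3.3): TMM scaling, filterByExpr (minimum count 10; 19714 genes kept, 29081 left out), robust quasi-likelihood F-tests on genotype and sex over all 48 libraries (41 residual degrees of freedom), and Benjamini-Hochberg adjustment over all genes tested at 0.05. A fold change is on the log2 scale. Alternatives used limma 3.58.1 on log2(FPKM + 0.1) and log2(FPKM + 1), DESeq2 1.42.0, other scalings and fewer libraries. In the main fit, p-values set each difference between groups against the spread between mice, which was estimated over all 48 libraries.

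Genes named are Msh3, Htt, the 12 largest rises and 12 largest falls at an average log2 CPM of 1 or more, the 8 smallest adjusted p, up to 4 called members of each list by p, 9 fixed striatal genes, the 8 largest interactions in each direction, genes called in opposite directions, and 8 called here and not in Q140 minus WT. Other list members and neighbours of Htt given with values, among them Slc17a7, Upb1, Scn4b and Adra2c, were chosen after their values were seen. The members and lists were chosen with earlier results of these data known. Some genes that the rule names are not reported here.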

Additional observations from a re-analysis of the deposited data

Results flagged for a closer look

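Of 80 groups of 8 mice checked, 6 had a mouse far from the other 7 (gap over range above Dixon's critical value). Chance gives about 1 in 20 groups. Some of the genes, Slc17a7 among them, were chosen after their values were seen, so the 6 cannot be set against that rate. Htt was highest in Msh3-/- M3, at 238 CPM. Plk5 was lowest in Q140 x Msh3-/- F4, at 12.4 CPM, and Sec14l3 highest in Msh3-/- F4, at 27.6 CPM. Kcnf1 was highest in Q140 x Msh3-/- F2, at 89.3 CPM. Slc17a7 stood out in Msh3-/- F2, at 34.5 CPM, and in Q140 x Msh3-/- F2, at 64.4 CPM.

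The Q140 effect differed from that on the WT background by its own test (edgeR interaction term, adjusted p under 0.05) for the following genes. The difference in log2 fold change was 2.13 for Gpx6, 1.97 for Wnt8b, 1.9 for Abhd11os, 1.69 for Fst, 1.54 for Ddit4l, 1.43 for Slc4a11, 1.37 for Sec14l3 and 1.35 for Mas1. It was -1.77 for Sfmbt2, -1.36 for Kazald1, -1.14 for BC030499, -1.09 for Dsp, -1.06 for Tpx2, -1.04 for Emx2os, -0.92 for Onecut2 and -0.76 for Gm44997.

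Against the Msh3+/- background the difference was 1.17 for Gpx6, 0.86 for Mas1, 0.85 for Ddit4l, 0.83 for 2410018L13Rik, 0.77 for Abhd11os, 0.76 for Ptpn7, 0.74 for Chrna4 and 0.65 for Il17rc. It was -1.07 for BC030499, -1.06 for Sfmbt2, -0.79 for Zfhx2os and for Nxph4, -0.68 for Aspdh, and -0.64 for Ltk, Gm20628 and Echdc2.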

How the results depend on the processing

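The number of genes called in Q140 x Msh3-/- minus Msh3-/- (1549) was 1774 with DESeq2, 1202 without the low-count filter, 1278 with plate column as a term and 1304 in a fit of the 16 libraries alone. Leaving out 1 library at a time gave 1027 (without Q140 x Msh3-/- F4) to 1786 (without Q140 x Msh3-/- M1). The differences from the Msh3+/- background passed for 256 genes, for 447 with DESeq2 and for 152 without the 4 libraries that stood apart, a set chosen after seeing the data; the cause was not tested. The labels do not say that a replicate number pairs mice, and deviations of same-numbered mice correlated between -0.023 and 0.357, highest for M1 (0.357) and F4 (0.186), with 4 of 8 best with their own number; the numbers were not taken as pairs. With a replicate block 1538, 1199 and 265 genes passed in the 3 tests. Over 13 settings other than leaving out a library, 1692 of 1783 values for the 138 named genes kept direction and side of the threshold, 87 lost and 4 gained a call, and 0 reversed. Of the 120 named genes called, 89 were called under every setting run.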
